A study of Mus musculus with 12 samples.

Results

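The tricarboxylic acid (TCA) cycle was represented by 9 genes, *Cs*, *Idh2*, *Idh3a*, *Idh3b*, *Idh3g*, *Ogdh*, *Suclg1*, *Fh1* and *Mdh2*. They were chosen by gene symbol, with no measured value in the rule, but with earlier results of these data known. All 9 were found among the 55367 symbols listed for each sample. All 9 also passed the filter on low values, together with the other genes tested, 14428 in all. RNA-seq was performed on muscle fibers isolated from the extensor digitorum longus (EDL), a fast hindlimb muscle, of male C57BL/6J mice, to ask which genes differ in aged fibers that stain abnormally with the calcium dye Fluo-4. The Young group held 4 samples from mice of 3–4 months. The Fluo-4 normal and the Fluo-4 abnormal groups held 4 samples each from mice of 26–28 months, whose fibers were separated under a fluorescence stereomicroscope by their Fluo-4 signal. No transgene or drug treatment is stated for these mice. The number of fibers and of mice behind each sample is not given in the sources used here, so p-values measure the spread between these samples.

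The TCA cycle runs in the mitochondrial matrix and oxidizes the acetyl group of acetyl-CoA, which comes from pyruvate and fatty acids, to carbon dioxide. The electrons are passed to the respiratory chain as NADH and reduced flavin. The flux through the cycle in working muscle is known to be set largely at citrate synthase, at NAD-dependent isocitrate dehydrogenase and at the 2-oxoglutarate dehydrogenase complex, whereas several of the other steps work near equilibrium. Oxidative fibers are known to hold more of these enzymes than the fast glycolytic fibers that make up most of the EDL.

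*Cs* encodes citrate synthase, which joins acetyl-CoA to oxaloacetate. *Idh3a*, *Idh3b* and *Idh3g* encode the catalytic alpha and the regulatory beta and gamma subunits of NAD-dependent isocitrate dehydrogenase (IDH3), and *Idh2* encodes the separate NADP-dependent enzyme of the matrix. *Ogdh* encodes the first component of the 2-oxoglutarate dehydrogenase complex. *Suclg1* encodes the alpha subunit that the ATP-forming and the GTP-forming succinyl-CoA ligases share. *Fh1* encodes fumarate hydratase, and *Mdh2* encodes the mitochondrial malate dehydrogenase that closes the cycle. In GRCm39 these genes lie on 9 different chromosomes, so that none is a neighbor of another. *Idh3a* lies at chr9:54493575-54514730 on the plus strand, *Idh3b* at chr2:130121227-130126467 and *Idh3g* at chrX:72820644-72830719, both on the minus strand. Their canonical transcripts have 11, 12 and 13 exons and lengths of 2586, 1616 and 1575 bases. *Cs* lies at chr10:128172837-128198363 and *Ogdh* at chr11:6241551-6309233, and their canonical transcripts are 2952 and 6800 bases long.

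The bases before the annotated start of the canonical transcript are shown for 4 enzymes that were lower in the Fluo-4 abnormal fibers, *Idh3a*, *Idh3b*, *Suclg1* and *Fh1*, and for *Ogdh*, which was not. They were read from GRCm39 with the starts of GENCODE vM39, and bases inside an exon of a protein-coding gene are left out. The sequence before *Idh3a* therefore covers chr9:54493512-54493574 (plus strand), and the others cover chr2:130126468-130126567 for *Idh3b* and chr1:175453206-175453305 for *Fh1* (both minus strand), and chr6:73225265-73225364 for *Suclg1* and chr11:6241451-6241550 for *Ogdh* (both plus strand). Capitals mark a match to CCGGAAG, the ETS core of the element bound by GABP, on either strand.
Idh3a: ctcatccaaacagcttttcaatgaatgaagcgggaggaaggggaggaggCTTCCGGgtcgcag
Idh3b: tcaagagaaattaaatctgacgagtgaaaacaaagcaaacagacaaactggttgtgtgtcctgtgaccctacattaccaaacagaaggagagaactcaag
Suclg1: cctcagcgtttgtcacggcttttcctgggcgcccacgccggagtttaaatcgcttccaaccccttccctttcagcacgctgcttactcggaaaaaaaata
Fh1: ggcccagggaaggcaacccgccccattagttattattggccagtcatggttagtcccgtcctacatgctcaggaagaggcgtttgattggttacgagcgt
Ogdh: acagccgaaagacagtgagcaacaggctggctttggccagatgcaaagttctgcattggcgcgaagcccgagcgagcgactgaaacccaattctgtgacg
The 100 bases before *Idh3b* held 40% G and C and 1 CpG, against 53% and 8 CpG before *Suclg1*, 54% and 5 CpG before *Fh1* and 56% and 7 CpG before *Ogdh*, all without exon bases. The median over 21770 promoters was 57% (quartiles 48% and 66%), exon bases included, so that the *Idh3b* window lay below the lower quartile. With exon bases included, the windows of *Idh3a*, *Idh3g* and *Mdh2*, also lower in the Fluo-4 abnormal fibers, held 59%, 68% and 69%. A link between these values and expression was not tested.

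From 250 bases before to 50 bases after the start, CCGGAAG was found on either strand in 2 of the 9 genes, *Idh3a* and *Mdh2*, against 10.26% of all promoters. The NRF1 element was found in 0 of 9 (5.81% of all promoters) and the estrogen-related receptor element TNAAGGTCA in 0 of 9 (1.24%). The nuclear receptor half-site AAGGTCA, which lies within the latter, was also found in 0 of 9 (4.48%). These matches are a description of the letters in this window only.

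Expression was deposited as TPM, the abundance of a transcript corrected for its length, a unit that makes each sample sum to the same total. Read counts were not used here, so the depth of each sample is unknown, and levels are relative to all other mRNA of the sample. Between 16841 and 17936 symbols were listed above 0 TPM per sample. Lower expression in all fibers of a sample and a smaller share of fibers with high expression cannot be told apart, and a change in the total mRNA per fiber cannot be seen on this scale. Myofiber markers (*Acta1*, *Ckm*, *Ttn*, *Tnnt3* and *Myh4*) summed to 95830 to 134321 TPM in each sample. Of the other cell types, erythroid markers were the highest, at 33.1 to 121 TPM in Young, 119 to 482 TPM in Fluo-4 normal and 44.4 to 236 TPM in Fluo-4 abnormal samples, and fibroblast markers summed to 13.3 to 80.2 TPM over all samples. None of the 5 erythroid and 5 fibroblast markers passed in any of the 3 comparisons. The adipocyte genes *Adipoq*, *Plin1* and *Lep* were at 0 in all 12 samples. In 1 Young sample, replicate 2, the smooth muscle markers summed to 62.0 TPM, and they summed to 6.12 TPM or less in both aged groups.

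The enzymes were abundant, and on the TPM scale their order was nearly fixed. Over the 12 samples *Mdh2* averaged 926 TPM and ranked 113 among the 14428 genes tested, whereas *Idh2*, the lowest, averaged 79.3 TPM and ranked 1069. In Young fibers the mean levels fell from *Mdh2* (964 TPM) to *Idh3a* (582), *Idh3b* (529), *Idh3g* (435), *Suclg1* (332), *Cs* (277), *Ogdh* (225), *Fh1* (162) and *Idh2* (68.8). Neighbors in this order did not overlap between samples, except *Idh3a* and *Idh3b*. In Fluo-4 abnormal fibers the order was the same, and the pairs that overlapped were *Idh3b* with *Idh3g*, *Suclg1* with *Cs* and *Cs* with *Ogdh*. In Fluo-4 normal fibers *Idh3b* (559.5) stood above *Idh3a* (534), with overlapping samples, and *Cs* with *Ogdh* and *Ogdh* with *Fh1* overlapped as well. *Mdh2* was the highest and *Idh2* the lowest in all 3 groups.

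**Figure D1:**
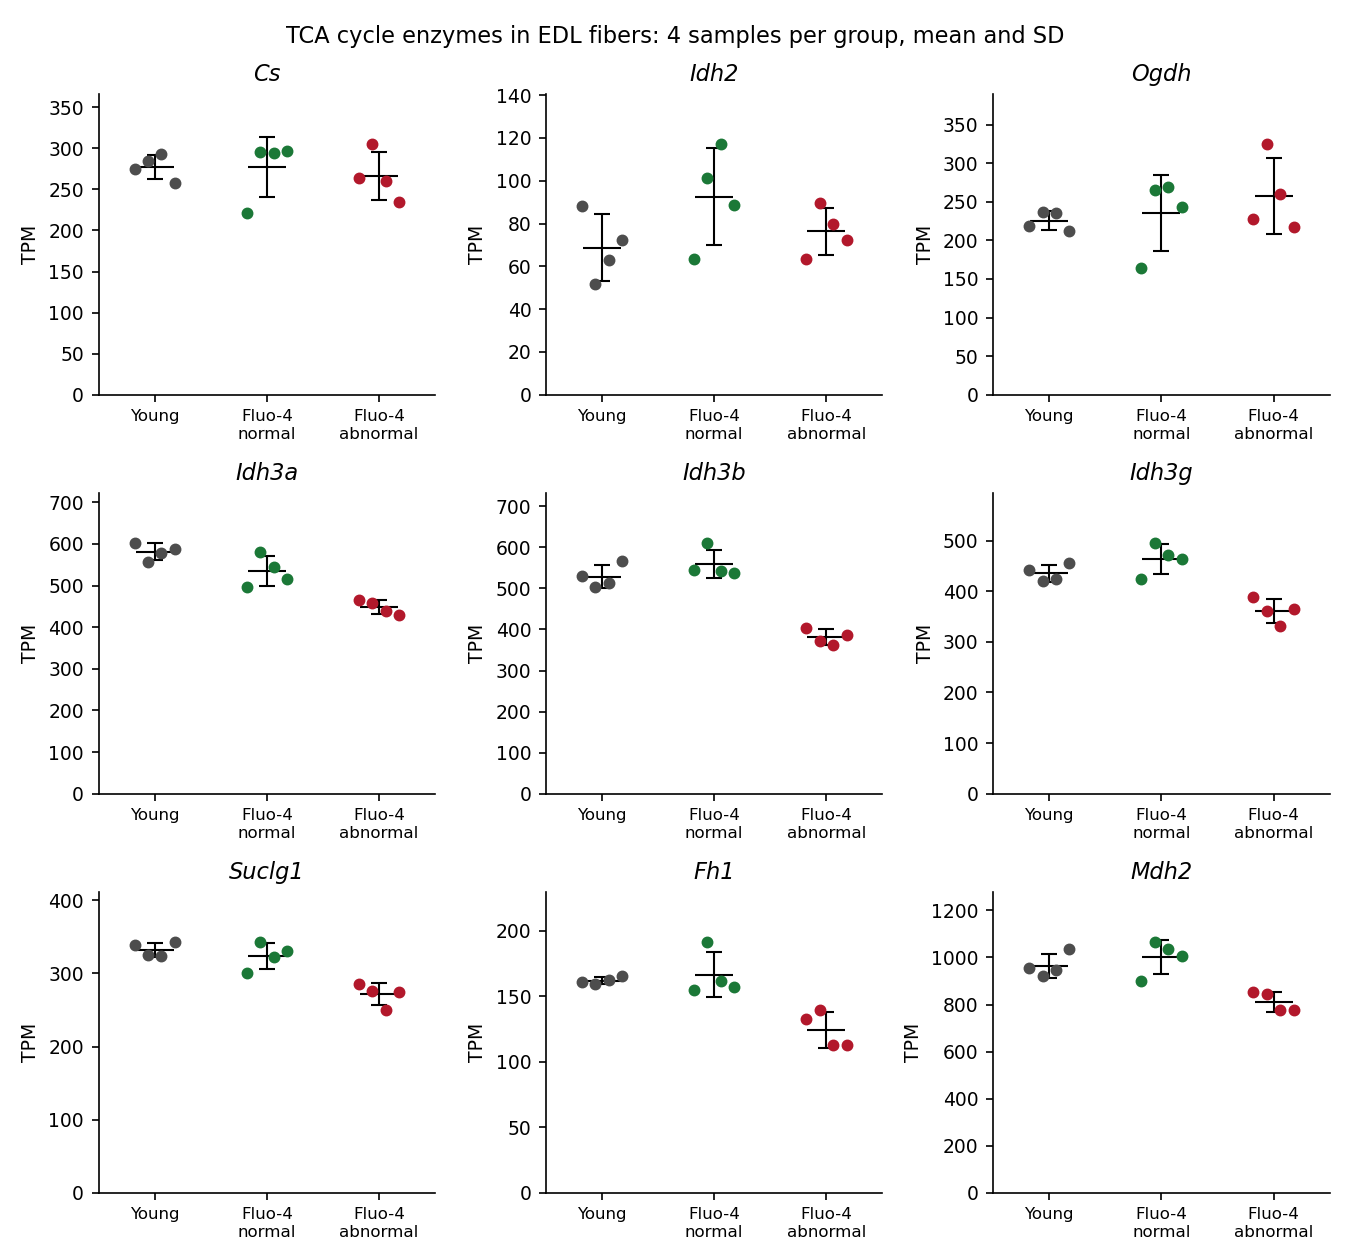
TPM of the 9 enzymes in the Young, Fluo-4 normal and Fluo-4 abnormal fibers, with 1 point per sample and the mean and SD of each group (n = 4). For *Idh3a*, *Idh3b*, *Idh3g*, *Suclg1*, *Fh1* and *Mdh2* all 4 Fluo-4 abnormal samples lie below all 8 other samples, whereas for *Cs*, *Idh2* and *Ogdh* the groups overlap.

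In Fluo-4 abnormal against Fluo-4 normal fibers, a comparison that asks what marks the abnormal fibers at the same age, 6 of the 9 enzymes were downregulated (limma, adjusted p under 0.05) and none was upregulated. This fit and its standard errors did not use the replicate numbers that the aged samples share. With those numbers as a block, 2 of the 9 passed, *Fh1* and *Idh3b*. Over all genes tested, 1.99% were called lower and 7.36% higher, and 2.54% were lower without overlap between the groups, against 6 of 9 enzymes. The 6 were the 3 IDH3 subunits, *Suclg1*, *Fh1* and *Mdh2*, and their means were 16.1% to 31.8% lower. The sum of the 9 enzymes averaged 3654 ± 287 TPM (SD, n = 4) in Fluo-4 normal and 2999 ± 153 TPM (SD, n = 4) in Fluo-4 abnormal fibers. The median log2 change of the 9 was -0.25, against 0.10 over all genes tested and 0.20 over the genes that reached 5 TPM.

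*Cs*, the first step, had 222, 296, 294 and 296 TPM in Fluo-4 normal samples 1 to 4 and 264, 306, 260.2 and 235 TPM in Fluo-4 abnormal samples 1 to 4. These values are mRNA and do not measure enzyme activity or mitochondrial content. The groups overlapped, and Fluo-4 normal sample 1 held the lowest value of all. The log2 change of *Cs* was -0.05 ± 0.10 (SE; 95% interval -0.27 to 0.17, adjusted p = 0.78). Scaling by a trimmed mean of log ratios gave -0.28 (limma, adjusted p = 0.029).

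The IDH3 subunits, which form 1 complex, held the largest decrease among the 9 enzymes. *Idh3b* had 545, 611, 543 and 539 TPM in Fluo-4 normal samples 1 to 4 and 405, 372, 362 and 387 TPM in Fluo-4 abnormal samples 1 to 4. The groups were separated by more than the range within either of them. The log2 change of *Idh3b* was -0.55 ± 0.06 (SE, adjusted p = 0.00063), and its mean was 31.8% lower.

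*Idh3g* had 423, 496, 472 and 464 TPM in the Fluo-4 normal and 389, 361, 331 and 365 TPM in the Fluo-4 abnormal samples. The groups did not overlap, and replicate 1 was closest to the other group on both sides. The log2 change of *Idh3g* was -0.36 ± 0.07 (SE, adjusted p = 0.0062). *Idh3g* overlaps *Srpk3* by 1920 bases and *Ssr4* by 416 bases on the opposite strand, and the library kit keeps no record of the strand, so reads of the shared bases cannot be assigned. *Srpk3* averaged 29.3 TPM in Fluo-4 normal and 41.0 TPM in Fluo-4 abnormal fibers, and *Ssr4* averaged 109 and 116 TPM.

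*Idh3a*, the catalytic subunit, had 496, 579, 545 and 516 TPM in the Fluo-4 normal and 467, 458, 439 and 428 TPM in the Fluo-4 abnormal samples. The groups were separated, although by a smaller gap than for *Idh3b*. Its log2 change was -0.25 ± 0.06 (SE, adjusted p = 0.023), and its mean was 16.2% lower.

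*Idh2*, the NADP-dependent enzyme, had a coefficient of variation of 22.5% in Young, 24.5% in Fluo-4 normal and 14.5% in Fluo-4 abnormal samples, the highest of the 9 in the first 2 groups, whereas *Ogdh* had the highest, 18.9%, in the Fluo-4 abnormal samples. It had 63.4, 101, 117 and 88.6 TPM in the Fluo-4 normal and 63.7, 89.8, 79.7 and 72.4 TPM in the Fluo-4 abnormal samples. The groups overlapped, and the log2 change was -0.25 ± 0.19 (SE; 95% interval -0.65 to 0.15, adjusted p = 0.43). A change as large as that of *Idh3b* therefore lies inside this interval.

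*Ogdh* was the only one of the 9 with a higher mean in Fluo-4 abnormal fibers. It had 164, 265, 269 and 244 TPM in the Fluo-4 normal and 227, 325, 259.9 and 217 TPM in the Fluo-4 abnormal samples. The groups overlapped, with the lowest value in Fluo-4 normal sample 1 and the highest in Fluo-4 abnormal sample 2. The log2 change was 0.14 ± 0.15 (SE; 95% interval -0.19 to 0.46, adjusted p = 0.60), and it was below 0 in 5 of 26 alternative settings, among them scaling by a trimmed mean of log ratios (-0.09).

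*Suclg1*, the shared subunit of the next step, had 300.2, 343, 322 and 330.2 TPM in the Fluo-4 normal and 286, 276, 251 and 274 TPM in the Fluo-4 abnormal samples. The groups did not overlap, but Fluo-4 normal sample 1 lay near the highest Fluo-4 abnormal sample. Its log2 change was -0.25 ± 0.06 (SE, adjusted p = 0.022).

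*Fh1* had 155, 192, 161 and 157 TPM in the Fluo-4 normal and 133, 139, 113 and 113 TPM in the Fluo-4 abnormal samples, without overlap. The log2 change was -0.42 ± 0.09 (SE, adjusted p = 0.0099), the second largest decrease of the 9.

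*Mdh2* had 899, 1067, 1035 and 1004 TPM in the Fluo-4 normal and 852, 843, 776 and 775 TPM in the Fluo-4 abnormal samples. The groups did not overlap, and the log2 change was -0.30 ± 0.07 (SE, adjusted p = 0.018). In TPM this was the largest difference of the 9, from a mean of 1001 to one of 811.

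The labels give the aged samples the same replicate numbers, and same-numbered samples deviated together from their group means. With the replicate number as a block, 2 of the 9 enzymes passed, *Fh1* (adjusted p = 0.028) and *Idh3b* (adjusted p = 0.019), and the other 4 had adjusted p-values of 0.052 to 0.069. Over all 14428 genes 1150 passed with the block, 232 of them lower, against 1349 and 287 without it. Each of the 6 enzymes was lower in Fluo-4 abnormal fibers in 4 of 4 same-numbered pairs. Because these 6 did not overlap between the groups, any pairing would give the same count. The differences of *Idh3b* within the pairs ranged from -0.72 to -0.43 on the log2 scale. *Cs* and *Ogdh* were lower in 2 of 4 pairs. Without the Young samples in the fit, 2 of the 9 passed, *Idh3b* (adjusted p = 0.014) and *Idh3g* (adjusted p = 0.035). In that fit 566 of the 14428 genes passed, 145 of them lower. After scaling by the trimmed mean, which set the median change over all genes from 0.10 to 0, all 9 enzymes were lower, 7 passed, and their median change was -0.48. That scaling also turned the split over all genes from 1062 higher and 287 lower to 304 higher and 559 lower.

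**Figure D2:**
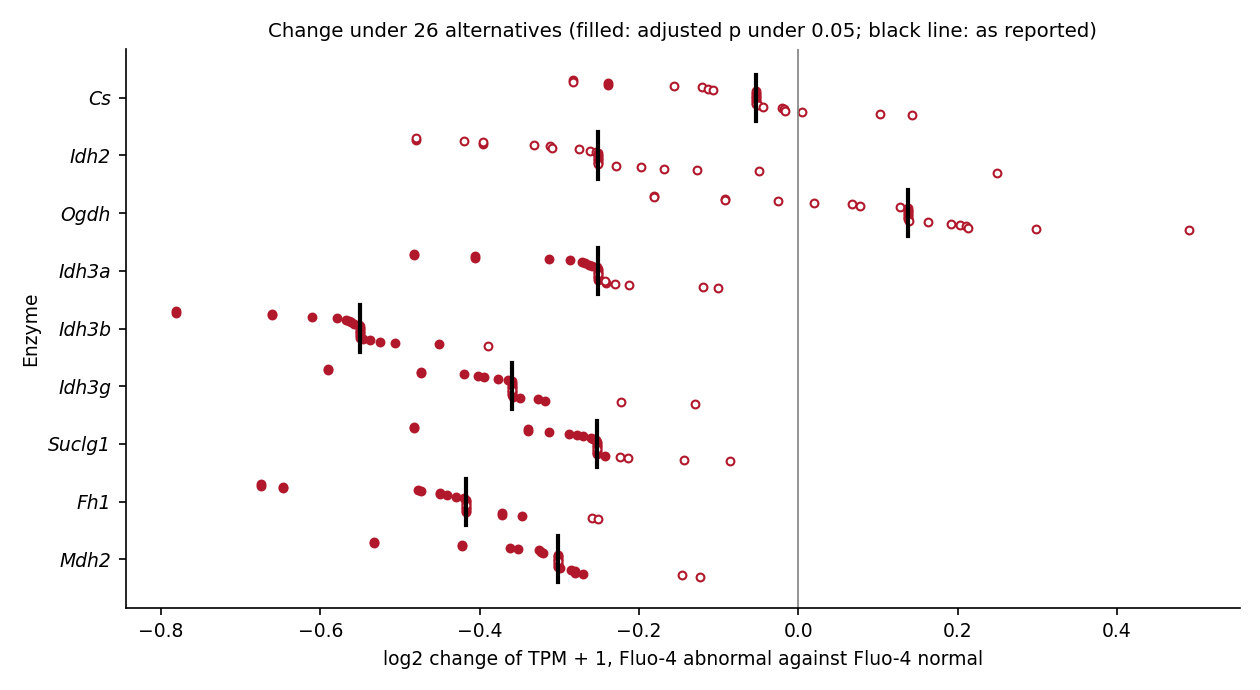
Log2 change of TPM + 1 of the 9 enzymes between Fluo-4 abnormal and Fluo-4 normal fibers under 26 alternative settings (points, filled where the adjusted p is under 0.05), with the reported value as a black line. *Idh3b* stays between -0.78 and -0.39, whereas *Cs* and *Ogdh* lie on both sides of 0 and *Cs* passes in 3 of the 26.

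**Figure D3:**
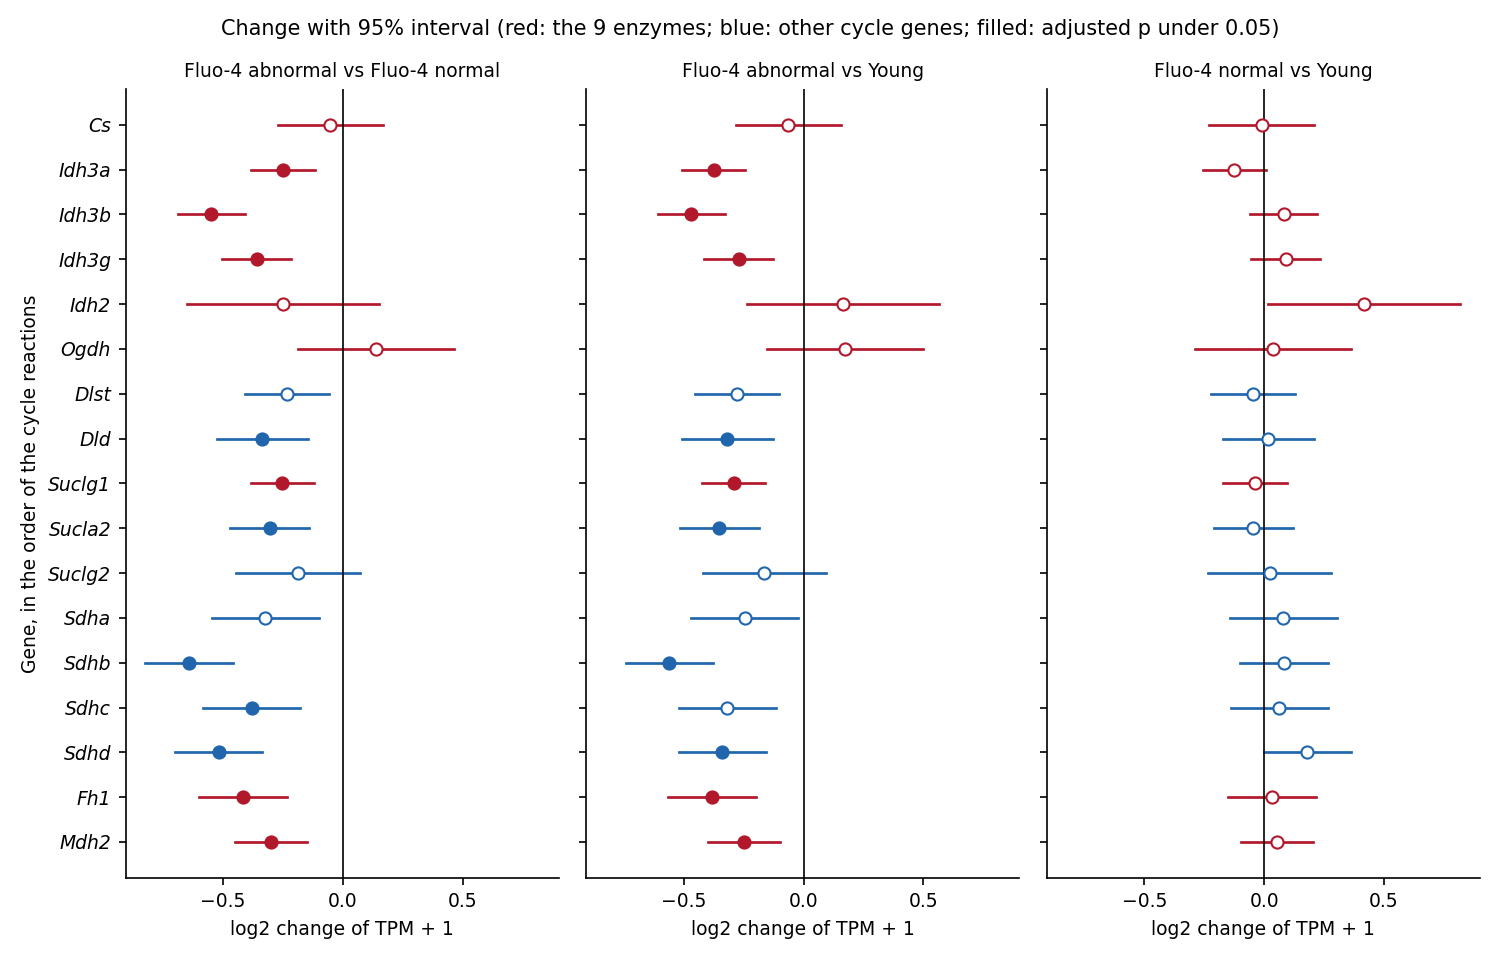
Log2 change of TPM + 1 with its 95% interval for the 9 enzymes (red) and 8 other genes of the cycle (blue), in the order of the reactions, for the 3 comparisons. Filled points have an adjusted p under 0.05. In both comparisons with Fluo-4 abnormal fibers all filled points lie below 0, and no point is filled between Fluo-4 normal and Young fibers.

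Between the Fluo-4 abnormal and the Young fibers, in which age and staining differ together, 6 of the 9 enzymes were downregulated and none was upregulated, against 2.41% of all genes called lower and 6.09% called higher. This comparison uses the same 4 Fluo-4 abnormal samples as the previous one, so the values stand side by side. *Idh3b* had 529.5, 503, 514 and 568 TPM in Young samples 1 to 4, and its log2 change was -0.47 ± 0.06 (SE, adjusted p = 0.00088). *Fh1* had 161, 159, 162 and 165 TPM in the Young samples, the tightest group of all, with a coefficient of variation of 1.58%. Its log2 change was -0.38 ± 0.09 (SE, adjusted p = 0.015).

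*Idh3a* had 603, 556, 579 and 589 TPM in the Young samples, above all 4 Fluo-4 abnormal samples, and its log2 change was -0.38 ± 0.06 (SE, adjusted p = 0.0029). *Idh3g* had 442, 419.8, 424 and 456 TPM in the Young samples and changed by -0.27 ± 0.07 (SE, adjusted p = 0.025). *Suclg1* had 339, 325, 324 and 343 TPM and changed by -0.29 ± 0.06 (SE, adjusted p = 0.011). *Mdh2* had 954, 921, 946 and 1035 TPM and changed by -0.25 ± 0.07 (SE, adjusted p = 0.043), the call nearest to the threshold. None of these 4 enzymes overlapped between the groups, and over all genes 3.95% were lower without overlap.

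*Cs* had 274, 285, 293 and 258 TPM in the Young samples, and its log2 change was -0.06 ± 0.10 (SE, adjusted p = 0.76). *Idh2* had 88.2, 51.6, 62.9 and 72.5 TPM and *Ogdh* had 218, 236, 235 and 212 TPM. Their log2 changes were 0.16 ± 0.19 (SE, adjusted p = 0.65) for *Idh2* and 0.17 ± 0.15 (SE, adjusted p = 0.54) for *Ogdh*, and both overlapped between the groups. The count of 6 fell to 3 without Young replicate 4 and to 3 without Fluo-4 abnormal replicate 4, where *Idh3a*, *Idh3b* and *Suclg1* still passed. Over all genes 1226 passed with every sample, 576 without Young replicate 4 and 744 without Fluo-4 abnormal replicate 4.

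Between the Fluo-4 normal and the Young fibers, which asks what age changes in fibers with normal staining, 0 of the 9 enzymes passed with limma, and 1 had an unadjusted p under 0.05. Over all genes tested 1.15% were called, so that 0 of 9 is near this share. The log2 changes ranged from -0.12 for *Idh3a* to 0.42 for *Idh2*, with a median of 0.04. *Idh2* had the unadjusted p of 0.043 (95% interval 0.01 to 0.82, adjusted p = 0.37). For *Idh3b* the 95% interval was -0.06 to 0.22, for *Fh1* -0.15 to 0.22 and for *Mdh2* -0.10 to 0.20, so that their changes between Fluo-4 abnormal and Fluo-4 normal fibers lay outside these intervals. For *Idh3a* the interval was -0.26 to 0.01, which holds its change of -0.25 between the aged groups. Both comparisons share the Fluo-4 normal samples, and whether their changes differ was not tested. All 9 enzymes overlapped between the Fluo-4 normal and the Young groups. Over all genes 7.98% did not overlap, so that 0 of 9 is near this share as well.

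Ratios within a sample do not depend on how the sample is scaled, and they ask whether the enzymes moved in step. Of 15 ratios fixed for this purpose, 8 did not overlap between Fluo-4 abnormal and Fluo-4 normal fibers, 6 between Fluo-4 abnormal and Young, and 2 between Fluo-4 normal and Young. Between the aged groups, 28.3% of genes that reached 5 TPM gave such ratios to *Cs*, 64.3% to *Idh3g*, 80.7% to *Idh3b* and 86.5% to *Mdh1*. Between Fluo-4 normal and Young fibers 12.0% did to *Idh3b* and 15.7% to *Idh3g*. The counts alone therefore do not tell whether the enzymes moved in step. An exact permutation test with 4 against 4 samples (two-sided, 70 arrangements) cannot give a p under 0.0286. Each ratio without overlap had this p and an adjusted p of 0.0804 over the 45 tests, so that 0 of 45 passed. The test did not use the replicate numbers.

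Relative to *Cs*, 4 of the 8 other enzymes did not overlap between Fluo-4 abnormal and Fluo-4 normal fibers, *Idh3b*, *Idh3g*, *Fh1* and *Mdh2*, against 28.3% of genes that reached 5 TPM. *Idh3b*/*Cs* was 2.46, 2.07, 1.84 and 1.82 in the Fluo-4 normal and 1.53, 1.22, 1.39 and 1.65 in the Fluo-4 abnormal samples. *Fh1*/*Cs* was 0.606 ± 0.080 (SD, n = 4) in the Fluo-4 normal and 0.468 ± 0.029 (SD, n = 4) in the Fluo-4 abnormal samples. Against Young fibers, 4 of the 8 did not overlap, *Idh3a*, *Idh3b* and *Fh1* with lower ratios and *Ogdh* with a higher one, and 29.0% of genes did not. *Ogdh*/*Cs* was 0.796 to 0.831 in Young and 0.861 to 1.06 in Fluo-4 abnormal fibers.

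The proportions of the 3 IDH3 subunit mRNAs were compared in the same way, and none of these ratios passed after adjustment. *Idh3a*/*Idh3b* was 1.14, 1.11, 1.13 and 1.04 in the Young, 0.911, 0.948, 1.00 and 0.959 in the Fluo-4 normal and 1.15, 1.23, 1.21 and 1.11 in the Fluo-4 abnormal samples. The Fluo-4 normal samples lay below both other groups, which overlapped each other. *Idh3b*/*Idh3g* was 1.21 ± 0.02 (SD, n = 4) in Young, 1.21 ± 0.06 (SD, n = 4) in Fluo-4 normal and 1.06 ± 0.03 (SD, n = 4) in Fluo-4 abnormal fibers, and the last group lay below both others. *Idh3a*/*Idh3g* was 1.34 ± 0.04, 1.15 ± 0.03 and 1.24 ± 0.07 (SD, n = 4 each) in the same order, and the lowest Fluo-4 abnormal and the highest Fluo-4 normal ratio were both 1.17. Against *Idh3b*, 80.7% of genes that reached 5 TPM gave ratios without overlap between the aged groups, and against *Idh3g* 64.3% did. Between Fluo-4 abnormal and Young fibers 46.4% of genes gave ratios to *Idh3g* without overlap. Between Fluo-4 normal and Young fibers these shares were 12.0% and 15.7%.

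**Figure D4:**
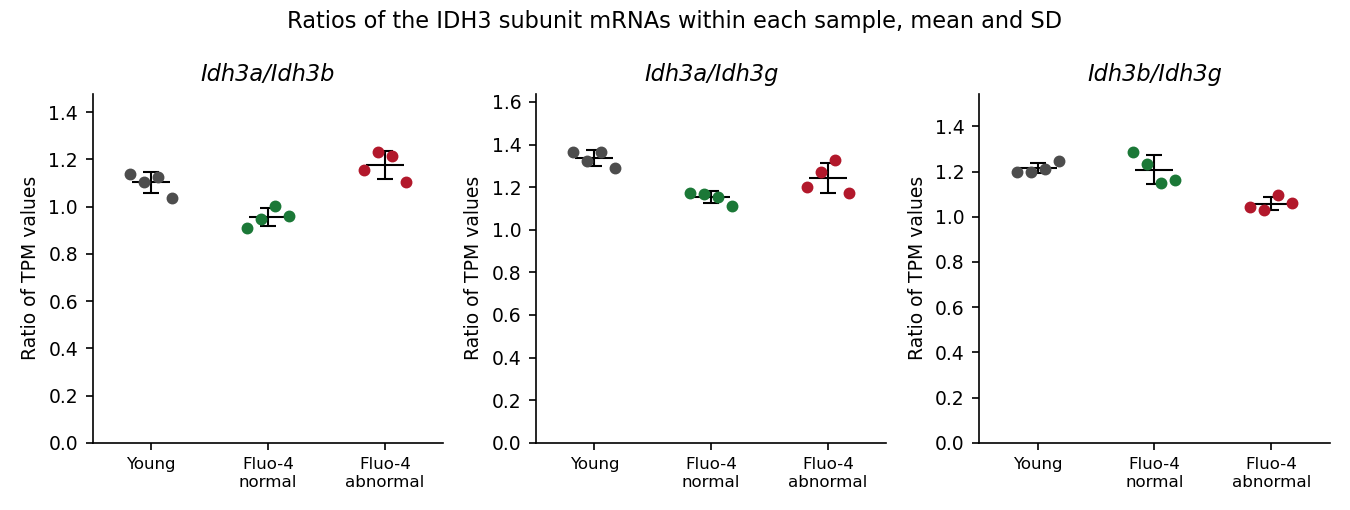
Ratios of the TPM values of the IDH3 subunits within each sample, with 1 point per sample and the mean and SD of each group (n = 4). *Idh3a*/*Idh3b* is lowest in the Fluo-4 normal samples (0.911 to 1.00), and *Idh3b*/*Idh3g* is lowest in the Fluo-4 abnormal samples (1.03 to 1.10).

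The 8 other genes compared encode the remaining components of the 2-oxoglutarate dehydrogenase complex (*Dlst* and *Dld*), the beta subunits of succinyl-CoA ligase (*Sucla2* and *Suclg2*) and succinate dehydrogenase (*Sdha* to *Sdhd*). Between Fluo-4 abnormal and Fluo-4 normal fibers 5 of these 8 were downregulated and none was upregulated, and against Young fibers 4 were downregulated. Over all genes tested 1.99% and 2.41% were called lower in these comparisons. Between Fluo-4 normal and Young fibers 0 of 8 passed with limma, and 1 had an unadjusted p under 0.05, *Sdhd*. *Sdhb*, the iron-sulfur subunit that also belongs to complex II of the respiratory chain, had 747, 868, 765 and 745 TPM in the Fluo-4 normal and 537, 549, 448 and 472 TPM in the Fluo-4 abnormal samples. Its log2 change of -0.64 ± 0.08 (SE, adjusted p = 0.00095) was the largest of these 8 and the 9 enzymes. *Dld*, *Sucla2*, *Sdhc* and *Sdhd* changed by -0.34, -0.31, -0.38 and -0.52. With the replicate block 3 of the 8 passed, and *Dld* (adjusted p = 0.061) and *Sucla2* (adjusted p = 0.10) did not. The count of 5 fell to 2 or 3 when any of Fluo-4 normal or Fluo-4 abnormal replicates 2, 3 and 4 was left out, and the count of 4 against Young fibers fell to 1 or 2 without any 1 of Young replicates 1, 3 and 4 or of Fluo-4 abnormal replicates 2, 3 and 4. Over all genes, leaving out 1 sample gave 606 to 1420 calls between the aged groups and 576 to 1677 against Young fibers.

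Components of the 2-oxoglutarate dehydrogenase complex gave different values. *Dlst*, the second component, changed by -0.23 ± 0.08 (SE, adjusted p = 0.089), and *Dld*, the third component, which other dehydrogenase complexes share, changed by -0.34 ± 0.09 (SE, adjusted p = 0.030). *Ogdh*/*Dlst* was 3.14 ± 0.51 (SD, n = 4) in the Fluo-4 normal and 4.09 ± 0.84 (SD, n = 4) in the Fluo-4 abnormal samples, which overlapped (exact permutation test, two-sided, p = 0.114). *Suclg2* has a near-identical copy elsewhere in the genome, and its value is therefore uncertain.

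Isozymes that work outside the cycle were compared with their matrix counterparts. *Mdh1*, the cytosolic malate dehydrogenase of the malate-aspartate shuttle, had 519.9, 611, 597 and 530.4 TPM in the Fluo-4 normal and 373, 378, 325 and 367 TPM in the Fluo-4 abnormal samples. *Mdh1* changed by -0.64 ± 0.08 on the log2 scale (SE, adjusted p = 0.00073), larger than that of *Mdh2*. *Mdh2*/*Mdh1* was 1.78 ± 0.08 (SD, n = 4) in Fluo-4 normal and 2.25 ± 0.11 (SD, n = 4) in Fluo-4 abnormal fibers, without overlap, and 86.5% of genes that reached 5 TPM gave ratios to *Mdh1* without overlap. *Idh1* (log2 change -0.30, adjusted p = 0.31), *Aco1* (0.28, adjusted p = 0.33) and *Ogdhl* (0.06, adjusted p = 0.79), which averaged 13.0, 4.90 and 0.325 TPM in Fluo-4 abnormal fibers, did not pass.

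Genes that feed the cycle, from pyruvate dehydrogenase, pyruvate carboxylase, the malic enzymes and amino acid metabolism, were 9 in number. Of these, 4 were downregulated and 1 was upregulated between Fluo-4 abnormal and Fluo-4 normal fibers. Over all genes tested 1.99% were called lower and 7.36% higher, so that the 1 upregulated gene is near its share. The median log2 change of the 9 genes was -0.31. *Me3*, a mitochondrial malic enzyme, changed by -0.40 ± 0.06 (SE, adjusted p = 0.0029), and *Pdhb*, the beta subunit of the first pyruvate dehydrogenase component, by -0.32 ± 0.06 (SE, adjusted p = 0.0068). The upregulated gene was *Pcx*, which makes oxaloacetate from pyruvate, with a mean of 17.2 TPM in Fluo-4 normal and 29.1 TPM in Fluo-4 abnormal fibers (log2 change 0.74 ± 0.21, SE, adjusted p = 0.046). *Pcx* was singled out after its value was seen. With the replicate block 3 of the 5 passed, *Me3*, *Pdhb* and *Pcx*, whereas *Dlat* (adjusted p = 0.059) and *Got2* (adjusted p = 0.093), called without it, did not.

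Glycolysis, the cytosolic source of pyruvate, was represented by 11 enzymes. Between Fluo-4 abnormal and Fluo-4 normal fibers 0 of 11 passed with limma, 3 of them with an unadjusted p under 0.05. Over all genes tested 1.99% were called lower and 7.36% higher, so that 0 of 11 is near these shares. The median log2 change of the 11 enzymes was -0.05, and it was -0.28 after scaling by the trimmed mean, which lowered the median change of all genes. *Gpi1* changed by 0.20 ± 0.08 (SE, adjusted p = 0.11) and *Eno3* by -0.20 ± 0.08 (SE, adjusted p = 0.13).

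The genes whose pattern over the 12 samples was most like the mean pattern of the 9 enzymes were found by the root mean square difference of log2(TPM + 1) after centering, among 5994 genes. Among the 5 closest were *Hadh* (0.06) and *Hadhb* (0.07), both enzymes of fatty acid beta-oxidation, *Dld* (0.07) and *Hspa9* (0.07), the mitochondrial HSP70 chaperone. *Hadh* averaged 83.4, 84.8 and 69.6 TPM in Young, Fluo-4 normal and Fluo-4 abnormal fibers. The 9 enzymes are themselves part of this mean pattern, which favors their ranks. Among them *Mdh2* was closest to the mean pattern and ranked 1 of the 5994, whereas *Idh3b* ranked 401, *Ogdh* 1909 and *Idh2* 2744.

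Fiber type was followed by the myosin heavy chain genes. *Myh4*, the myosin heavy chain of the fastest fibers, had 6254, 8598, 9813 and 8159 TPM in the Fluo-4 normal and 10770.1, 14714, 15574 and 10992 TPM in the Fluo-4 abnormal samples (log2 change 0.66 ± 0.16, SE, adjusted p = 0.020). *Myh1*, the chain of fast fibers with more oxidative metabolism, had 46.2, 542, 488 and 262 TPM in the Fluo-4 normal and 64.5, 147, 48.5 and 44.3 TPM in the Fluo-4 abnormal samples, and its log2 change was -1.81 ± 0.63 (SE, adjusted p = 0.087). *Myh4* made up 93.7% to 99.2% of the summed *Myh1*, *Myh2*, *Myh4* and *Myh7* in Fluo-4 normal and 98.9% to 99.7% in Fluo-4 abnormal fibers. With this share as a covariate, 1 of the 9 enzymes passed between Fluo-4 abnormal and Fluo-4 normal fibers, *Idh3b* (log2 change -0.45, adjusted p = 0.024), and *Cs* and *Idh2* changed sign. Of the 8 other cycle genes 2 passed with this covariate. Over all 14428 genes 820 passed with it, 108 of them lower. With the replicate block as well, 0 of the 14428 genes passed with limma (2460 had an unadjusted p under 0.05), so that the 0 of 9 says nothing about the enzymes.

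In Fluo-4 normal sample 1, *Myh1* was as low as in the Fluo-4 abnormal samples, and the 9 enzymes summed to 3269 TPM, against 2868 to 3170 TPM in the latter. In that sample *Cs* and *Ogdh* were at the lowest levels of all 12 samples. *Idh3a* (496 TPM), *Idh3g* (423), *Suclg1* (300.2), *Fh1* (155) and *Mdh2* (899) were lowest there among the Fluo-4 normal samples, yet above all Fluo-4 abnormal samples. *Idh2* (63.4 TPM) was also the lowest of its group. Only *Idh3b*, at 545 TPM, lay within the range of the other Fluo-4 normal samples. Young sample 2 and Fluo-4 abnormal sample 2 both had 147 TPM of *Myh1*, and their 9 enzymes summed to 3456 and 3170 TPM. These are single samples picked by their *Myh1* level, and the part of fiber type in the enzyme values was not tested. *Myh2* and *Myh7*, the chains of the slower fibers, did not pass in any of the 3 comparisons.

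**Figure D5:**
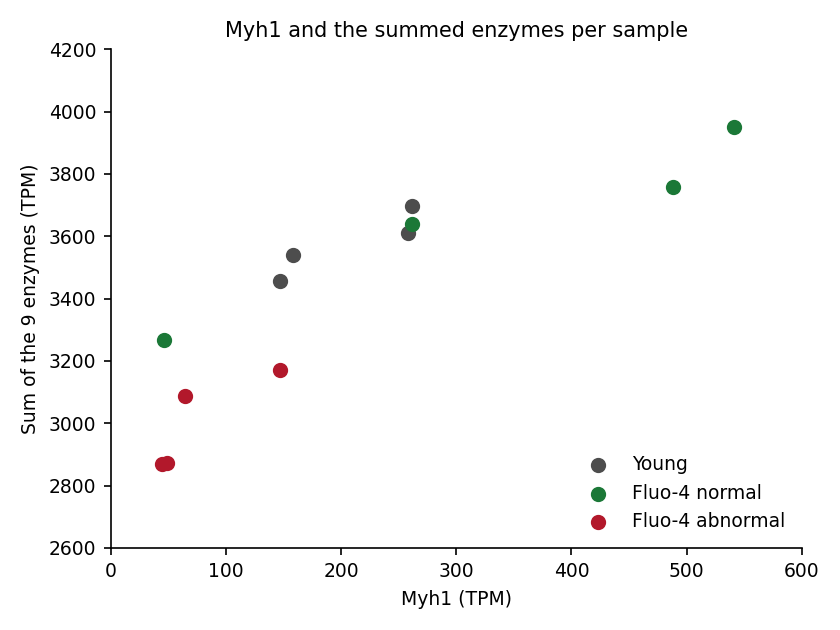
*Myh1* (TPM, x axis) and the sum of the 9 enzymes (TPM, y axis, which does not start at 0) in each of the 12 samples, colored by group. The 4 Fluo-4 abnormal samples have the lowest sums (2868 to 3170 TPM), below the Fluo-4 normal sample with 46.2 TPM of *Myh1* (3269 TPM). A link between *Myh1* and the sum was not tested.

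Other measures also differed between the groups. The 37 mitochondrially-encoded genes summed to 77718 ± 3013 TPM (SD, n = 4) in Young, 96918 ± 9734 TPM (SD, n = 4) in Fluo-4 normal and 58236 ± 10427 TPM (SD, n = 4) in Fluo-4 abnormal fibers. After the values were scaled without these genes, 6 of 9 enzymes passed in both comparisons with Fluo-4 abnormal fibers. The 5 immune markers summed to 0.718 to 1.48 TPM in Young, 5.07 to 14.7 TPM in Fluo-4 normal and 7.22 to 11.4 TPM in Fluo-4 abnormal samples, and 1 of them, *Lyz2*, passed against Young in each aged group. The 4 Schwann cell markers summed to 0.773 to 1.81, 1.32 to 6.33 and 3.41 to 7.64 TPM, and *Mbp* passed between Fluo-4 abnormal and Young fibers. No marker of another cell type passed between Fluo-4 abnormal and Fluo-4 normal fibers. The part of fiber type, of the mitochondrially-encoded genes and of other cells in the enzyme values was not tested.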

How the data were processed

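Per the labels and the study's methods, libraries were made with the SMART-Seq v4 kit, and DRAGEN 4.3 mapped the reads to GRCm39. The values the authors deposited were TPM, in a separate file for each sample with 55487 lines and 55367 distinct symbols (114 symbols stood on several lines and were summed). Fold changes are on the scale of log2(TPM + 1), which understates those of low genes. The annotation release is not given in the sources used here.

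Group means were estimated in all 12 samples together with limma 3.58.1 (R 4.3.3), with a trend on mean expression and Benjamini-Hochberg adjustment (threshold 0.05) over 14428 protein-coding and mitochondrially-encoded genes with a mean of at least 0.02 TPM in at least 1 group. The study's methods state this filter and, in general, tests between a pair of groups. For differential genes they state a fold-change threshold against young single fibers, then a p-value threshold between Fluo-4 abnormal and normal fibers. Here limma was used instead, without a fold-change threshold, so the calls follow a different rule. Ratios were compared by exact permutation (scipy 1.17.1), and BLAST 2.17.0 served to look for near-identical gene copies. The share of *Myh4* is that in the sum of *Myh1*, *Myh2*, *Myh4* and *Myh7*.

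The 9 enzymes and the other lists were chosen with earlier results of these data known. The genes named are these 9, the other cycle genes, 4 isozymes, 2 genes each of the entry and glycolysis lists with the smallest p, the 5 most similar genes and 4 myosin genes. *Pcx*, *Dlat* and *Got2* of the entry list are named beyond these rules. A gene that these rules would name is not reported here. Numbers pair the aged samples: in 6348 genes, the deviations of same-numbered samples from their group means correlated at 0.28 to 0.42 in 4 of 4 pairs, against -0.35 to 0.22 for different numbers. Neither the labels nor the methods say that a number marks a mouse. Alternatives were a trimmed mean of log ratios (trim of 30%), scaling without mitochondrially-encoded genes, other filters, a pseudocount of 0.1, all annotated genes, sample weights, the *Myh4* share, the replicate block, only the groups compared, each sample left out, and, added after the data were seen, removal of a trend on GC content and length and its combination, or that of the trimmed mean, with the block.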

Additional observations from a re-analysis of the deposited data

Results flagged for a closer look

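In 2 of the 27 sets of 4 values (9 enzymes in 3 groups), 1 sample lay farther from the others than Dixon's 95% limit for the gap to the nearest value over the range. Chance gives about 1 in 20 such sets. *Cs* was 222 TPM in Fluo-4 normal replicate 1, against 294 to 296 TPM in the others (gap over range 0.972). Without that sample the log2 change of *Cs* between Fluo-4 abnormal and Fluo-4 normal fibers was -0.16 (adjusted p = 0.29) in place of -0.05, and that of *Ogdh* was -0.03 (adjusted p = 0.93) in place of 0.14. *Idh3b* was 611 TPM in Fluo-4 normal replicate 2, against 539 to 545 TPM in the others (0.913). Without Fluo-4 normal replicate 2, the log2 change of *Idh3b* was -0.51 (adjusted p = 0.0043).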

How the results depend on the processing

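The 6 enzymes called between Fluo-4 abnormal and Fluo-4 normal fibers became 2 with only the groups compared, 2 with the replicate block, 1 with adjustment for the share of *Myh4* and, with limma, 0 with both the block and this share, where 2 had an unadjusted p under 0.05 and 0 of all 14428 genes passed (2460 with an unadjusted p under 0.05). With each sample left out in turn the count was 4 to 6, and under all other alternatives 6 to 8. Against Young fibers it was 3 to 6 with samples left out and 4 to 7 otherwise, and between Fluo-4 normal and Young fibers 0 throughout. Over all 14428 genes, 1349 were called between the aged groups, 566 with only the groups compared, 1150 with the block and 820 with the share. With samples left out, 606 to 1420 genes were called between the aged groups and 576 to 1677 against Young fibers. Ratios without overlap numbered 8 to 10, 6 to 9 and 2 to 4 in the 3 comparisons with samples left out, the 4 arising without Fluo-4 normal replicate 4 or Young replicate 1. With the replicate block, *Idh3b* kept an adjusted p of 0.019 and *Fh1* one of 0.028. *Cs*, *Idh2* and *Ogdh* did not pass with the block alone. *Cs* passed with the trimmed mean (without the block) and with the GC and length trend removed (with and without it), and *Idh2* passed with the block combined with either. The causes were not tested. Without read counts, the precision that depth gives is unknown.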
